A study of Homo sapiens with 8 samples.

Results

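The 8 genes described here are TP63 and TP73, which encode the relatives of the tumor suppressor p53, and 6 genes that p53 is known to switch on: MDM2, CDKN1A, BBC3, SESN1, GDF15 and FAS. They were chosen by symbol from the 56632 genes of the deposited count table, with their levels across the cell lines already known, so their values are given as a description without a test. All 8 were among the 18431 genes that passed the filter on low counts. They were followed in 4 isogenic breast cell lines, each sequenced as poly A+ RNA in 2 biological replicates. M1 is MCF10A, a spontaneously immortalized and non-tumorigenic mammary epithelial line. M2 is MCF10AT1k.cl2, made from MCF10A by transfer of the activated T24-HRAS oncogene and passage as a xenograft. When M2 cells are grafted into mice, a few grafts become carcinomas, and 2 lines come from such tumors: MCF10Ca1h, called M3, and MCF10CA1a.cl1, called M4. M3 tumors are well differentiated, whereas M4 tumors are poorly differentiated and M4 cells colonize the lung from the bloodstream. All lines were grown for 8 days as 3D structures in Matrigel with 2% horse serum, hydrocortisone, cholera toxin and insulin. The medium of M1 and M2 contained the growth factor EGF at 10 ng/ml, and that of M3 and M4 contained none. Line and EGF cannot be told apart in any comparison of M3 or M4 with M1 or M2, and only M2 against M1 and M4 against M3 share a medium. M2, M3 and M4 are single derived lines, so each stage is represented by 1 line.

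p53 is a transcription factor that is stabilized by DNA damage and other stresses and then activates genes for cell cycle arrest, DNA repair and programmed cell death. Its relatives p63 and p73 recognize the same DNA element, and in the mammary gland p63 is best known for maintaining basal epithelial cells. MDM2 is both a target of p53 and the ubiquitin ligase that marks p53 for destruction, which closes a negative feedback loop. The p53 protein was not measured, and RNA levels of its targets were the readout here.

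The DNA element bound by p53 consists of a pair of 10-base units, each built from purines, a C, bases A or T, a G and pyrimidines. The sequence within 2500 bases of the start of each gene was searched on both strands for adjoining units, allowing 2 mismatches in 20 bases and keeping the C at position 4 and the G at position 7 of each unit. Matches are shown for the 4 of 8 genes that had one, because this element is where p53 family proteins bind their target genes. The capitals mark the fixed C and G of each unit, and positions refer to GRCh37, plus strand.
CDKN1A, chr6:36644226-36644245: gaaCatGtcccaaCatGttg
MDM2, chr12:69202703-69202722: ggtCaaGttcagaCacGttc
GDF15, chr19:18496118-18496137: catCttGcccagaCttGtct
FAS, chr10:90751066-90751085: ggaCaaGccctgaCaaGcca
The CDKN1A match began at position -2265 from the canonical start and overlapped an annotated exon of a longer transcript. The MDM2 match lay in an intron, 746 bases downstream of the start. The GDF15 match began at position -850 from the canonical start, inside an intron of a longer annotated transcript. The FAS match overlapped an exon, 652 bases downstream of the gene's first base. A match was present in 3.87% of the 14086 gene starts searched and in 14 of the 40 other p53 targets listed (35%). No match within these limits was found near TP63, TP73, BBC3 or SESN1, which says only that these letters are not in those windows. PLK2 and ZMAT3, from the list of other targets, held a match with 0 mismatches, at chr5:57758101-57758120 and chr3:178787976-178787995 on the minus strand:
PLK2: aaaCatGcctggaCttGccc
ZMAT3: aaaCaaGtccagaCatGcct

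Total counts per library ran from 69669970 to 107350344, and levels are given as counts per 1000000 (CPM) after TMM scaling. A gene was called changed at a Benjamini-Hochberg adjusted p below 0.05 in edgeR's quasi-likelihood test together with a log2 fold change above 1 in size. The replicates of M2 were much closer to each other than those of other lines. The chi-square of their counts per degree of freedom was 6.68 for the M2 replicates, whereas M4, M1 and M3 gave 128, 263 and 331. A supplementary expression table of the study disagreed with the sample labels for 2 libraries. Its column for M2 replicate 1 matched the library labelled M1 replicate 2 best (r = 0.861 over 716 genes), and its column for M1 replicate 2 matched the library labelled M2 replicate 1 best (r = 0.869). Among the libraries themselves, the one labelled M2 replicate 1 correlated at 0.997 with M2 replicate 2 and at 0.974 with M1 replicate 1 across genes. The one labelled M1 replicate 2 was about equally close to both lines. It correlated at 0.979 with M1 replicate 1 and at 0.978 and 0.977 with M2 replicates 1 and 2. The sample labels were kept, and values with these 2 libraries exchanged are given where they matter. All 6 mammary epithelial markers (EPCAM, CDH1, KRT8, KRT18, KRT5 and KRT14) were at 1 CPM or more in every library. The same held for 2 or 3 of the 7 measured markers of fibroblasts, endothelium and leukocytes, depending on the library. The summed level of the epithelial markers ran from 5941 to 11054 CPM, and that of the other 7 from 12.7 to 80.4 CPM. COL1A2 was at 0 counts throughout. PECAM1 was not analysed here. In these bulk samples fewer cells of a type and less RNA per cell cannot be told apart.

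TP63, the p53 relative of basal epithelium, was lower in M3 than in M2 and lowest in M4. Its level was 89.6 and 108 CPM in the M1 replicates, 105 and 105 CPM in M2, 61.4 and 80.2 CPM in M3 and 36.2 and 39.8 CPM in M4. M1 and M2 overlapped, M3 lay below both, and M4 lay below M3. The fitted log2 fold change in M4 was -1.38 ± 0.17 (SE) against M1, a 2.61-fold lower level, and -0.90 ± 0.17 against M3. The counts are summed over all transcripts of the gene, so full-length and N-terminally shortened forms of p63 cannot be told apart.

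TP73 showed the widest range of the 8 genes. The M1 libraries had 5.15 and 17.6 CPM and the M2 libraries 13.3 and 13.1 CPM, and the level was only 0.265 and 0.471 CPM in M3 and 0.0793 and 0.128 CPM in M4. These levels correspond to between 426 and 1440 reads in the M1 and M2 libraries, 21 and 41 reads in M3, and 9 and 10 reads in M4. The M1 replicates differed from each other more than those of M2, but every M1 and M2 library lay far above every M3 and M4 library. The log2 fold change was -4.94 ± 0.64 for M3 and -6.79 ± 0.72 for M4 against M1, and -1.85 ± 0.68 for M4 against M3. The values against M1 rested on M1 libraries that differed: they were -3.79 and -5.65 without M1 replicate 2 and -5.56 and -7.41 without M1 replicate 1. TP73-AS1 on the opposite strand overlaps the gene's end and had between 188 and 745 counts, and WRAP73 overlaps its start. Whether the authors' counting used strand is not given in the sources used here.

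MDM2, the ubiquitin ligase that restrains p53, stood out in M4. It was measured at 64.2 and 48.5 CPM in M1, 89.7 and 95.0 CPM in M2, 53.1 and 57.9 CPM in M3 and 221 and 266 CPM in M4. Both M4 libraries were more than 2-fold above every other library, M2 lay between, and M1 and M3 overlapped. The log2 fold change in M4 was 2.11 ± 0.18 against M1, 1.40 ± 0.18 against M2 and 2.13 ± 0.18 against M3. With the disputed libraries exchanged, the M2 to M1 difference went from 0.71 to -0.10, and that of M4 to M1 became 1.66. A processed pseudogene within the MDM2 span had at most 265 counts, 1.06% of the highest MDM2 count.

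CDKN1A, the cyclin-dependent kinase inhibitor through which p53 arrests the cell cycle, went the opposite way in M4. Its level was 311 and 228 CPM in M1, 347 and 342 CPM in M2, 302 and 264 CPM in M3 and 116 and 94.2 CPM in M4. M1 and M3 overlapped, M2 was slightly above them, and both M4 libraries were below all others. The M2 to M1 log2 difference went from 0.36 to -0.21 when the disputed libraries were exchanged, and that of M3 to M2 from -0.28 to -0.01. The log2 fold change in M4 was -1.36 ± 0.19 against M1, -1.72 ± 0.19 against M2 and -1.43 ± 0.19 against M3, where the medium was the same. In M4 the inhibitor of p53 was therefore above, and its arrest effector below, the level of every other line.

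BBC3 and FAS belong to the death arm of the p53 response. BBC3 (PUMA), an activator of mitochondrial apoptosis, was at 11.3 and 18.8 CPM in M1, 13.2 and 15.7 CPM in M2, 10.3 and 6.59 CPM in M3 and 14.9 and 14.4 CPM in M4. Its M1, M2 and M4 libraries overlapped, and M3 was lowest. The log2 fold change was -0.04 ± 0.30 for M4 and -0.84 ± 0.30 for M3 against M1, so BBC3 differed by less than its error between M4 and M1. FAS, the cell surface death receptor, was higher in each line than in the one before it. It was measured at 24.0 and 21.5 CPM in M1, 32.5 and 31.5 CPM in M2, 47.5 and 34.4 CPM in M3 and 54.3 and 70.6 CPM in M4. No pair of neighboring lines overlapped. The log2 fold change was 0.49 ± 0.20, 0.85 ± 0.20 and 1.46 ± 0.20 in M2, M3 and M4 against M1. The M2 to M1 difference became -0.09 when the disputed libraries were exchanged, and that of M4 to M1 became 1.14. The start of FAS overlaps ACTA2 on the opposite strand, which had between 321 and 1927 counts.

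SESN1 and GDF15 answer to metabolic and other stress. SESN1, a sestrin that restrains mTORC1 signaling, was at 58.6 and 54.7 CPM in M1, 49.9 and 49.2 CPM in M2, 41.2 and 28.3 CPM in M3 and 21.2 and 27.6 CPM in M4. Every line was below the one before it without overlap by the sample labels. When the disputed libraries were exchanged, M1 and M2 overlapped and their difference went from -0.19 to -0.06. The log2 fold change in M4 was -1.22 ± 0.21 against M1 and -0.51 ± 0.21 against M3. GDF15, a secreted stress cytokine of the TGF-beta superfamily, was at 8.67 and 12.7 CPM in M1, 14.9 and 15.5 CPM in M2, 10.6 and 4.55 CPM in M3 and 163 and 156 CPM in M4. The M4 libraries were more than 10-fold above all others, and M1 and M3 overlapped. The log2 fold change in M4 was 3.90 ± 0.40 against M1 and 4.40 ± 0.41 against M3, which was the largest of the 8 genes in that comparison. Without M3 replicate 1 the value against M3 was 5.13.

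**Figure D1:**
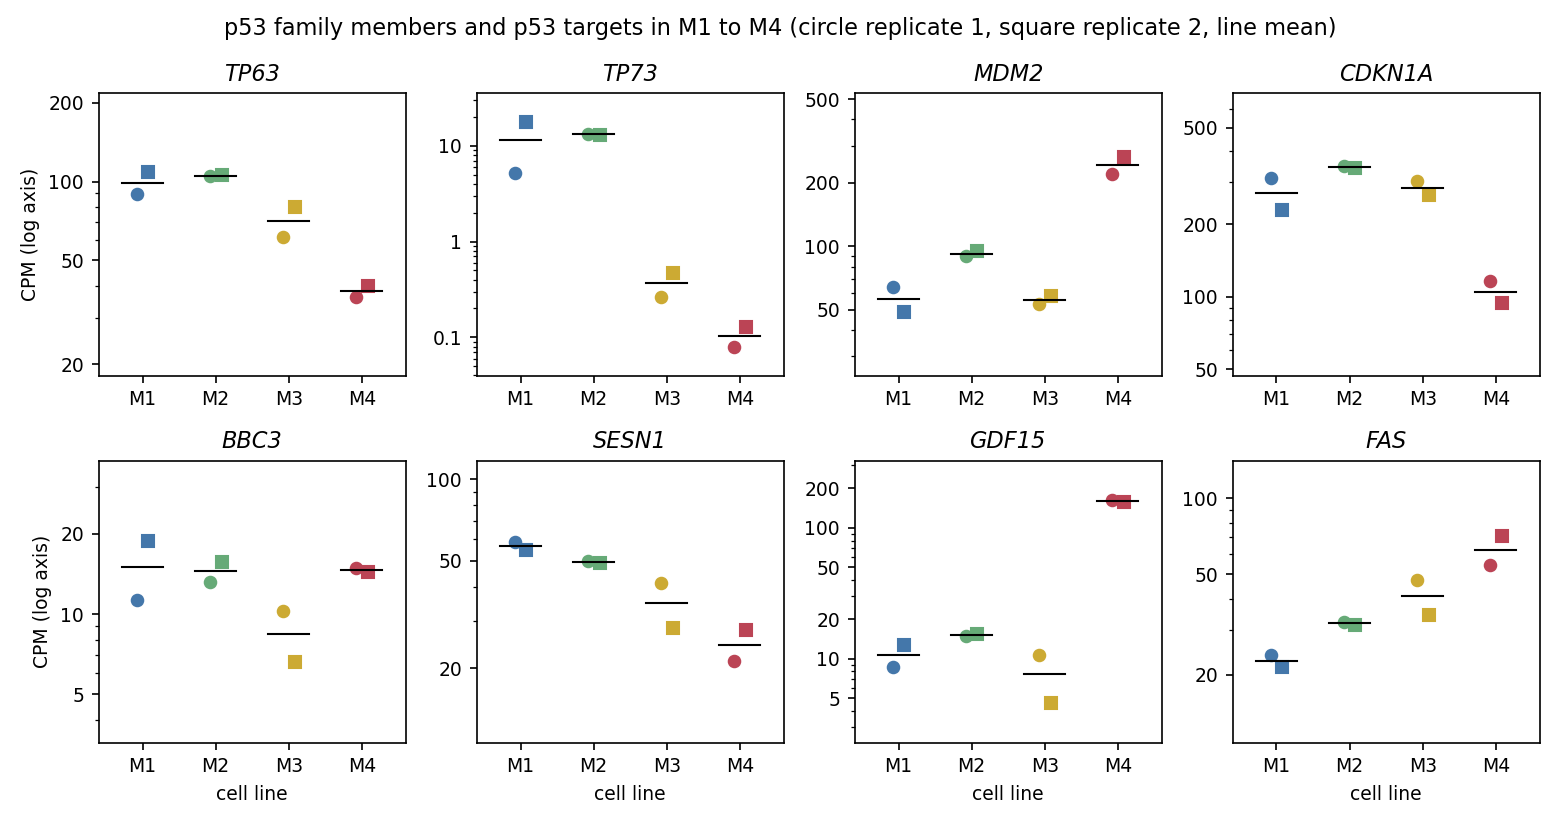
Levels of the 8 genes in CPM (log axis) by cell line, with a circle for replicate 1, a square for replicate 2 and a line at the mean of both. MDM2 and GDF15 are highest and CDKN1A and TP63 lowest in M4, TP73 is below 1 CPM in M3 and M4, and BBC3 in M4 lies within the range of M1.

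Counted together, 7 of the 8 genes passed the call in M4 against M1, with MDM2, GDF15 and FAS higher and TP63, TP73, CDKN1A and SESN1 lower. Among all genes tested 20.7% passed it. The count was 6 for M4 against M2 (13.9% of all genes), 3 for M4 against M3 (10.3%), 1 for M3 against M1 (13.5%), 1 for M3 against M2 (4.15%) and 0 for M2 against M1 (3.37%). The single gene in both M3 comparisons was TP73, and the 3 genes in M4 against M3 were MDM2, CDKN1A and GDF15. Nothing is read from these counts, since the genes were chosen with their levels known. The 7 genes of M4 against M1 were the same 7 with the disputed libraries exchanged. In M4 against M2 the exchange added FAS to the 6, and SESN1, at -1.02, passed the limit of 1 in 6 of 12 alternatives, with values from -1.20 to -0.84. Comparisons that involve the same line share its libraries and are not independent of each other.

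**Figure D2:**
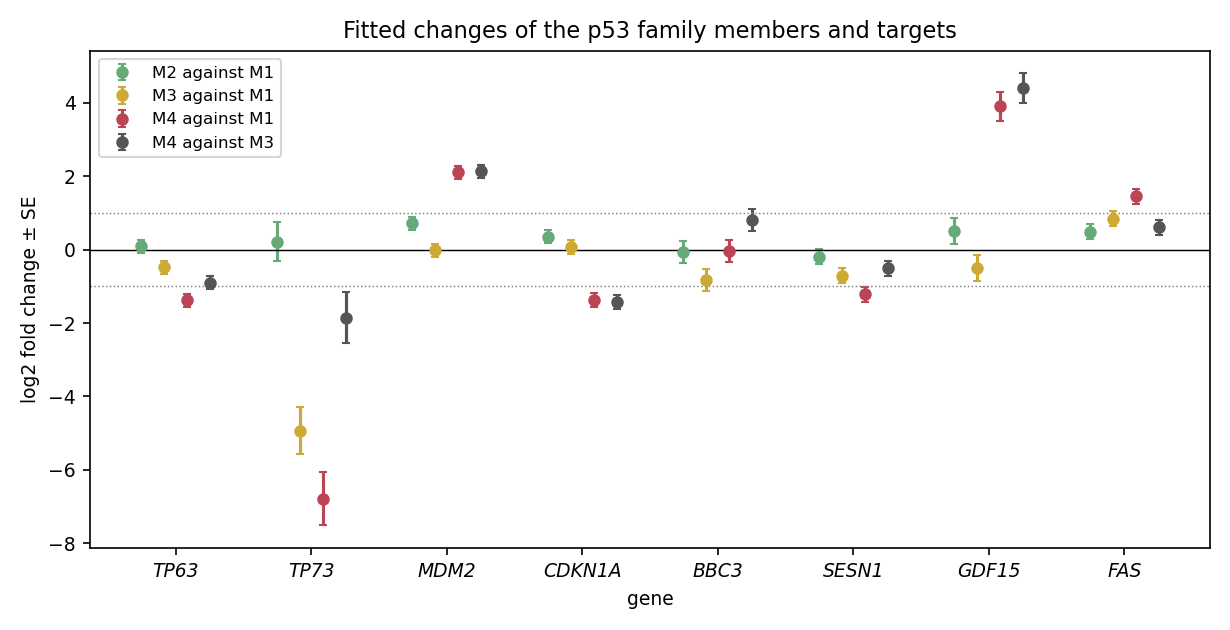
Fitted log2 fold changes of the 8 genes, with bars for 1 SE and dotted lines at the limit of 1 in either direction. In M2 against M1 all 8 points lie within the dotted lines, and in M4 against M3 the points of MDM2, GDF15, CDKN1A and TP73 lie outside them, of which TP73 did not pass the call.

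The order of the 8 genes within a line was compared per kilobase of exon. CDKN1A was the most abundant in M1, M2 and M3, with 89.9, 115 and 94.5 CPM per kb, followed by TP63 in M1 and M2 and by FAS in M3. In M4 the order changed, with GDF15 at 76.6, CDKN1A at 35.0, MDM2 at 29.3, FAS at 17.5 and TP63 at 5.08 CPM per kb. TP73 was the least abundant in every line, from 1.95 CPM per kb in M2 down to 0.0153 in M4.

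The 8 genes did not vary as a block. Over the 8 libraries, Pearson's r of log2 CPM was 0.94 between MDM2 and GDF15, -0.89 between CDKN1A and GDF15, -0.81 between CDKN1A and MDM2 and 0.88 between TP63 and TP73, while BBC3 correlated with TP63 at 0.01. These values describe 4 pairs of replicate libraries and carry no test. Among all expressed genes, the profile most like that of GDF15 was the transcript RP11-435B5.5 (r = 0.999), followed by RRM2B (r = 0.990), which encodes a p53-inducible ribonucleotide reductase subunit. The most similar to MDM2 were CCNK and MID1 (r = 0.982 and 0.981), to CDKN1A CAVIN2 and HLA-C (0.992 and 0.989), and to FAS YWHAH and FAM107B (0.990 and 0.986). TP63 was closest to ZNF584 and TSPYL1 (both 0.993), TP73 to ZNF416 and FANCF (both 0.991), SESN1 to CDH24 and SLC25A5 (both 0.992) and BBC3 to PPP1R16A and TRAF1 (0.963 and 0.960).

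The tested protein-coding genes around the 8 genes were also compared, a choice made after the values were seen. MDM2 lies on chromosome 12, a region that is amplified in some tumors. The 13 tested protein-coding genes within 1 Mb of it had log2 fold changes from -0.54 to 0.51 in M4 against M3, with a median of 0.11, and 0 of them was called, beside 2.13 for MDM2. The 49 such neighbors of GDF15 on chromosome 19 had a median of 0.10, and 1 was called higher. In M4 against M1, 1 neighbor of MDM2 was called higher and 1 lower, and 6 neighbors of GDF15 higher and 4 lower, with medians of 0.23 and -0.01, and of all genes 9.48% were called higher and 11.2% lower. FAS on chromosome 10 had 12 such neighbors, of which 6 were called higher in M4 against M1, and their median was 1.11 beside 1.46 for FAS. The 6 were ANKRD22, STAMBPL1, KIF20B and the interferon-induced genes IFIT1, IFIT2 and IFIT3. In M4 against M3 the 12 neighbors had a median of 0.38 beside 0.61 for FAS, and 1 was called higher. Of the genes lower in M4, TP63 had 6 neighbors with a median of -1.002 in M4 against M3, beside -0.90 for TP63. In that comparison 3 of the 6 were called lower, and of all genes 6.3% were called lower and 3.99% higher. In M4 against M1 the 6 had a median of -0.26 beside -1.38 for TP63, and 2 were called lower. The neighbors of TP73, CDKN1A and SESN1 had medians from 0.14 to 0.38 in M4 against M3. Those of BBC3 had a median of -0.50 there, beside 0.80 for BBC3. Copy number was not measured.

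**Figure D3:**
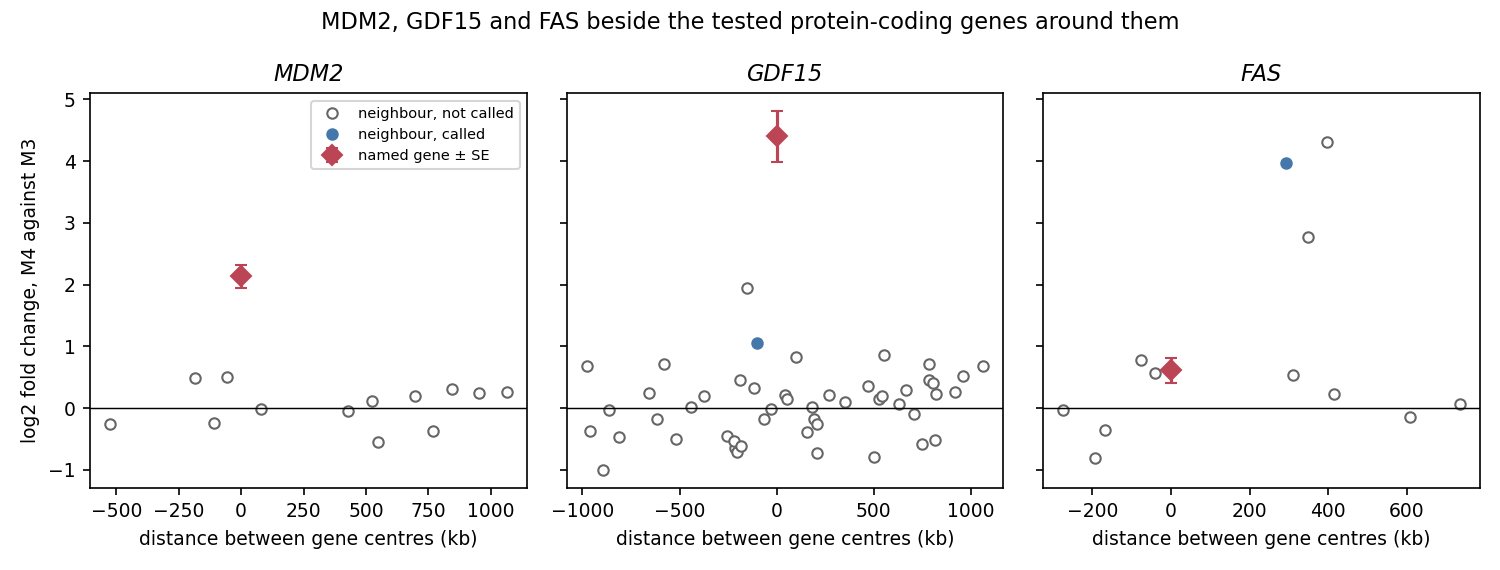
Log2 fold change in M4 against M3 of MDM2, GDF15 and FAS (diamonds, bars for 1 SE) and of the tested protein-coding genes within 1 Mb of each (circles, filled where called), by distance between gene centers in kb. MDM2 and GDF15 stand above every neighbor, whereas FAS, at 0.61, lies among its neighbors.

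A wider list of 40 p53 targets without the 8 genes above was then tested in the same fit. This list and those below were chosen with earlier results of these data known. Their counts and p-values are therefore no independent check. Against M1, 7 of the 40 were called higher and 2 lower (9.48% and 11.2% of all genes), and the median log2 fold change of the list was 0.40, against -0.02 for all genes tested. Against M2 the calls were 7 and 1 (6.98% and 6.94% of all genes), with a median of 0.35 against -0.01. Against M3, grown in the same medium, 6 were called higher and 0 lower (3.99% and 6.3% of all genes), the median was 0.46 against -0.02, and 34 of 40 values were above 0 (85.0%, beside 48.4% of all genes). Beside the count of 0 lower, 20 of the 40 genes had an unadjusted p below 0.05 in either direction in this comparison, and DESeq2 called 8 genes. With the disputed libraries exchanged the calls were 6 against M1, 7 against M2 and 3 against M3 (8.46%, 10.2% and 4.5% of all genes), and the 3 genes no longer called against M1 were SFN, TP53INP1 and NINJ1. With both left out they were 10, 5 and 6 (12.5%, 7.31% and 8.65%).

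PLK3, a polo-like kinase of the stress response, showed the largest rise. It was at 5.43 and 7.01 CPM in M1, 9.94 and 9.35 CPM in M2, 14.7 and 11.6 CPM in M3 and 64.3 and 50.9 CPM in M4. Every M4 library was above every other, with a log2 fold change of 3.21 ± 0.22 against M1 (edgeR adjusted p = 0.000174) and 2.13 ± 0.21 against M3 (adjusted p = 0.00188). PMAIP1 (NOXA), an activator of apoptosis like BBC3, rose from 3.11 and 3.37 CPM in M1 to 29.3 and 16.1 CPM in M4, by 2.81 ± 0.32 on the log2 scale (edgeR adjusted p = 0.000867). PMAIP1 was also higher in M4 than in M3, by 1.48 ± 0.30 (adjusted p = 0.0174), but this call was lost when replicate 1 of M3 or of M4 was left out or the disputed libraries were exchanged (highest adjusted p = 0.0985). BBC3 changed by -0.04 ± 0.30 in M4 against M1 and by 0.80 ± 0.30 in M4 against M3.

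TNFRSF10A, a death receptor for the ligand TRAIL, went from 24.9 and 21.6 CPM in M1 to 78.4 and 85.2 CPM in M4. Its log2 fold change was 1.81 ± 0.16 against M1 (edgeR adjusted p = 0.000335) and 1.06 ± 0.15 against M3 (adjusted p = 0.00628). RRM2B, for DNA repair synthesis, was at 41.7 and 42.3 CPM in M1, 47.7 and 33.3 CPM in M3 and 97.6 and 108 CPM in M4, and rose by 1.29 ± 0.18 and 1.34 ± 0.18 against M1 and M3 (edgeR adjusted p = 0.00213 and 0.00514). GADD45A, a growth arrest and DNA repair gene, was higher in M3 as well as in M4, by 1.57 ± 0.25 and 1.95 ± 0.26 against M1 (edgeR adjusted p = 0.00569 and 0.00163). The M3 call for GADD45A was lost with the disputed libraries exchanged (adjusted p = 0.136). SFN, an adaptor protein of the cell cycle checkpoint, and AEN, an apoptosis nuclease, completed the 7 genes that rose in M4 against M1, by 1.57 ± 0.15 and 1.53 ± 0.13. SPATA18 and PIDD1 completed the 6 that rose against M3, by 1.26 ± 0.28 and 1.14 ± 0.26. Both calls were lost with the exchange, and that of SPATA18 also without M3 replicate 2 or either M4 replicate. Over all alternatives its change ranged from 0.88 to 1.76.

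In M3 against M1, 3 of the 40 targets were called higher (GADD45A, PLK3 and PMAIP1) and 2 lower (TP53INP1 and SESN2), beside 8.02% and 5.51% of all genes, and the median was -0.06. Against M2, 0 were higher and 3 lower (TP53INP1, SESN2 and GLS2), beside 2.95% and 1.2%, and the median was -0.21. The calls against M2 were lost in 6 of 12 alternatives for TP53INP1 and in 5 for SESN2. That of PMAIP1 against M1 was lost in 6 of 12, with values from 0.88 to 1.49. SESN2, the paralog of SESN1, was at 38.6 and 42.4 CPM in M1, 33.8 and 33.1 CPM in M2, 16.2 and 16.8 CPM in M3 and 35.2 and 28.1 CPM in M4. It fell by 1.30 ± 0.16 in M3 against M1 (edgeR adjusted p = 0.00195), and its lowest line was thus M3, whereas that of SESN1 was M4. TP53INP1, a promoter of autophagy and death, fell by 2.26 ± 0.26 in M3 and by 1.32 ± 0.25 in M4 against M1 (edgeR adjusted p = 0.0017 and 0.00716). NINJ1, a membrane protein of lytic cell death, fell by 1.86 ± 0.34 in M4 against M1 (edgeR adjusted p = 0.00577), but its M1 replicates stood apart at 160 and 346 CPM. Without M1 replicate 2 the value was -1.20, and the call was lost with the disputed libraries exchanged (adjusted p = 0.101). With that exchange all of these M3 calls were lost (0 against M1 and 0 against M2, beside 1.19% and 1.16% of all genes). GLS2, the p53-inducible glutaminase, was lower in M3 and M4 than in M2 by 1.84 ± 0.40 and 1.42 ± 0.39, and these calls were lost when any single library of the lines compared was left out.

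In M2 against M1, the other comparison with the same medium, 0 of the 40 targets was called by edgeR, and 14 had an unadjusted p below 0.05. DESeq2 called 1. The median was 0.01, against -0.04 for all genes tested, of which 3.37% were called.

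**Figure D4:**
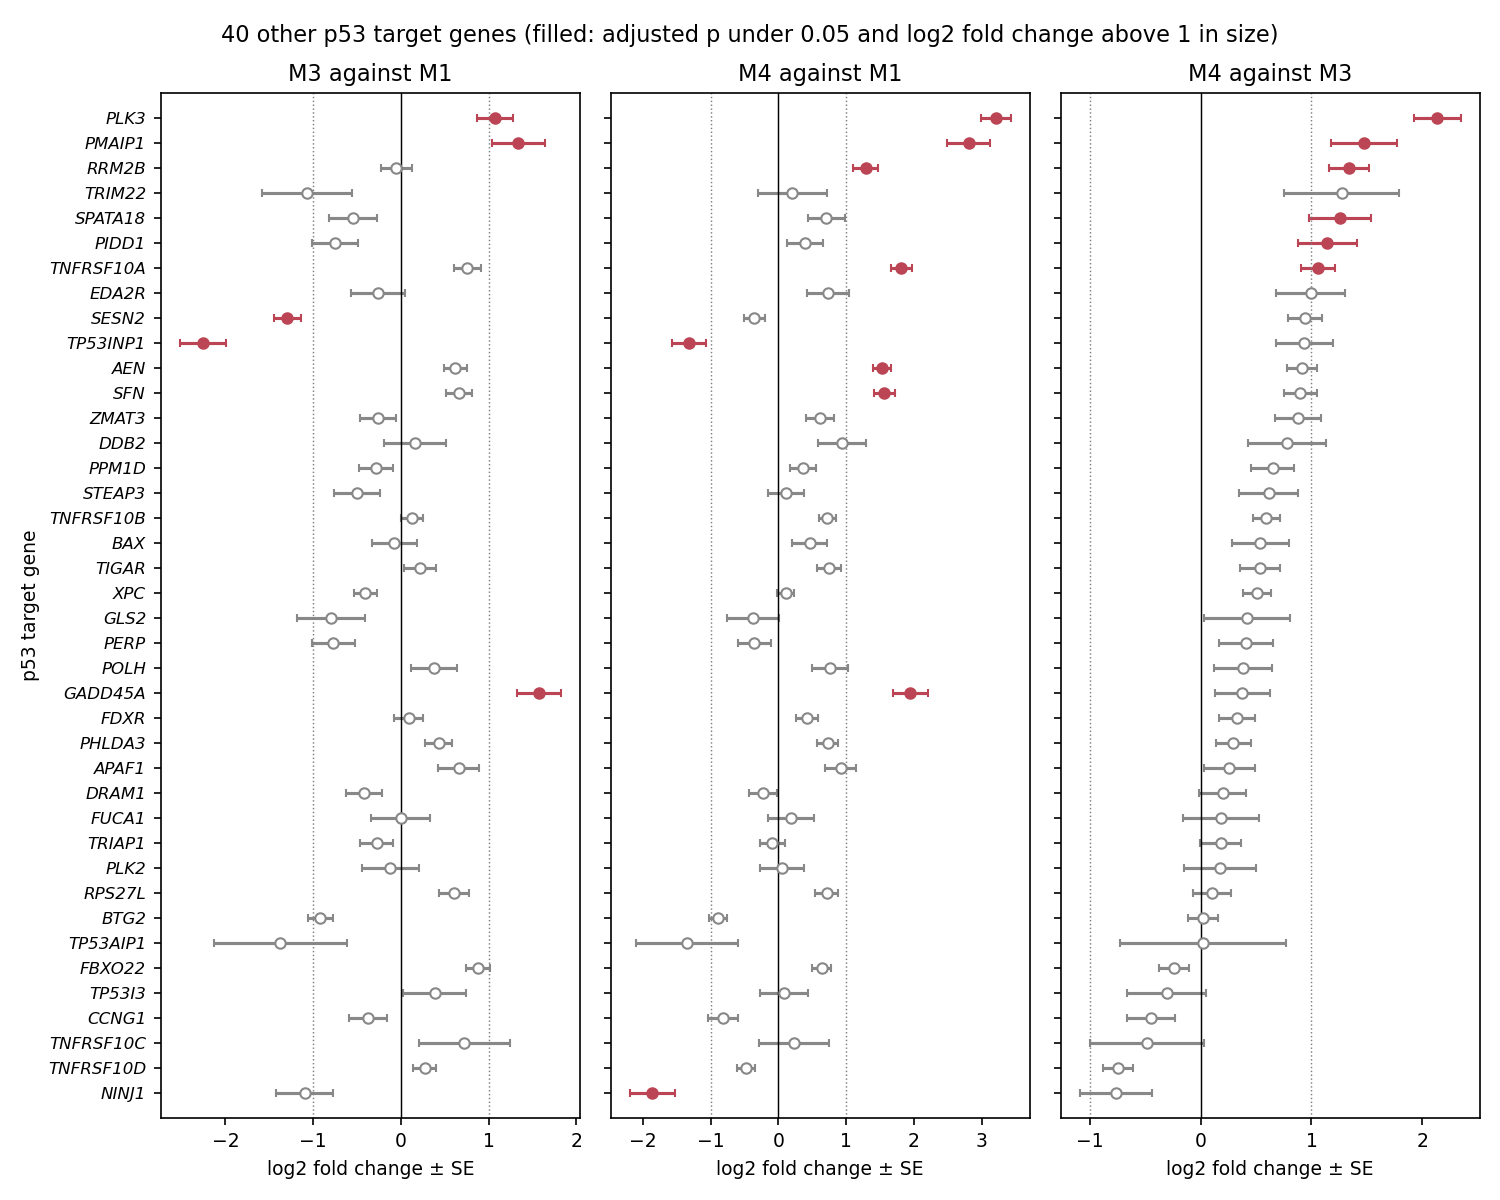
Log2 fold changes of the 40 other p53 targets with bars for 1 SE in M3 against M1, M4 against M1 and M4 against M3, ordered by the last, with called genes filled. PLK3 and PMAIP1 lie at the top, and in M4 against M3 34 of the 40 points lie to the right of 0.

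Of 21 listed regulators of p53, 20 were tested. MDM4, the MDM2 relative that also restrains p53, had 10.3 and 13.9 CPM in M1 libraries and 11.2 and 11.3 CPM in M4 libraries, so the higher MDM2 level in M4 had no counterpart of its size in MDM4. CDKN2A, whose product ARF inhibits MDM2, had 0 counts in all 8 libraries, which allows at most 3 counts or between 0.0264 and 0.0426 CPM per library. CHEK1, the checkpoint kinase, was higher in M2 and M3 than in M1, by 1.06 ± 0.13 and 1.11 ± 0.13 (edgeR adjusted p = 0.00837 and 0.0019). PPP1R13B (ASPP1), which directs p53 toward death genes, was lower in M3 and M4 than in M1, by 1.05 ± 0.21 and 1.08 ± 0.21 (edgeR adjusted p = 0.0122 and 0.00725). RPL5, a ribosomal protein that binds MDM2, was lower in M4 than in M1 by 1.01 ± 0.26 (adjusted p = 0.0232), but this call was lost in 8 of 12 alternatives and near-identical pseudogenes make its counts uncertain. In total 1, 2 and 2 of the 20 regulators were called in M2, M3 and M4 against M1, beside 3.37%, 13.5% and 20.7% of all genes, and 0 in the other 3 comparisons, where 4, 8 and 5 had an unadjusted p below 0.05 in M3 against M2, M4 against M2 and M4 against M3 and DESeq2 also called 0. None of the 5 calls was made with the disputed libraries exchanged. In that setting 0.0%, 1.19% and 8.46% of all genes were called in M2, M3 and M4 against M1.

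TP63 has its own targets in basal epithelium, keratins and the adhesion proteins that anchor cells to the basement membrane, and 16 of these were tested. Against M1, 4 of the 16 were called lower in M4 (KRT5, KRT14, FAT2 and ZNF750) and 4 higher (ITGA3, ITGA6, LAMA3 and S100A2). KRT14, a basal keratin, was at 17.7 and 8.26 CPM in M1, 37.3 and 36.3 CPM in M2, 99.7 and 91.1 CPM in M3 and 2.30 and 2.74 CPM in M4. It was highest in M3 and lowest in M4 without overlap of any lines, and fell by 5.24 ± 0.37 on the log2 scale from M3 to M4 (edgeR adjusted p = 0.000948). KRT5, its partner keratin, was far more abundant, with 8414 and 6203 CPM in M1 but 3268 and 2837 CPM in M4, and fell by 1.26 ± 0.24 against M1 (edgeR adjusted p = 0.00665). FAT2, a basal protocadherin, fell from 268 and 301 CPM in M1 to 27.3 and 44.5 CPM in M4, by 2.99 ± 0.40 (edgeR adjusted p = 0.00186). KRT5 and KRT14 also have near-identical pseudogenes and relatives, among which reads may be divided.

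Genes of adhesion on the list differed from each other. LAMA3, a laminin chain of the basement membrane, was at 98.2 and 134 CPM in M1, 297 and 292 CPM in M2, 748 and 1064 CPM in M3 and 783 and 871 CPM in M4, and was called higher in M2, M3 and M4 than in M1 (edgeR adjusted p = 0.0185, 0.000547 and 0.000304). All 3 LAMA3 calls were lost with the disputed libraries exchanged, where the adjusted p in M4 was 0.0597. ITGA3, an integrin chain, rose by 1.07 ± 0.22, 1.94 ± 0.22 and 2.05 ± 0.22 in M2, M3 and M4 against M1. ITGB4, the hemidesmosomal integrin chain, was at 737 and 767 CPM in M1, 752 and 728 CPM in M2, 2347 and 2409 CPM in M3 and 998 and 940 CPM in M4. Both M3 libraries were above all others, by 1.66 ± 0.15 against M1 (edgeR adjusted p = 0.00077), and ITGB4 fell by 1.30 ± 0.15 from M3 to M4 (adjusted p = 0.00317). Both calls were also made with the exchange. S100A2, a calcium-binding protein, was at 1622 and 1720 CPM in M1 and rose to 13796 and 10622 CPM in M3, by 2.87 ± 0.24. ZNF750, a differentiation factor, was at 13.1 and 10.8 CPM in M1 and fell by 2.01 ± 0.30, 3.17 ± 0.31 and 1.37 ± 0.29 in M2, M3 and M4. Over the 16 genes, M2 against M1 had 4 higher and 1 lower call, M3 against M1 had 6 and 1, M4 against M1 had 4 and 4, and M4 against M3 had 1 and 5. Among all genes tested the shares called higher and lower were 2.26% and 1.11%, 8.02% and 5.51%, 9.48% and 11.2%, and 3.99% and 6.3% in these comparisons. The medians were 0.15, 0.40, -0.02 and -0.46, respectively. With the exchange the counts of calls were 0, 1, 3 and 3, beside 0.0%, 1.19%, 8.46% and 4.5% of all genes. The 3 genes in M4 against M1 were KRT5, KRT14 and FAT2.

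**Figure D5:**
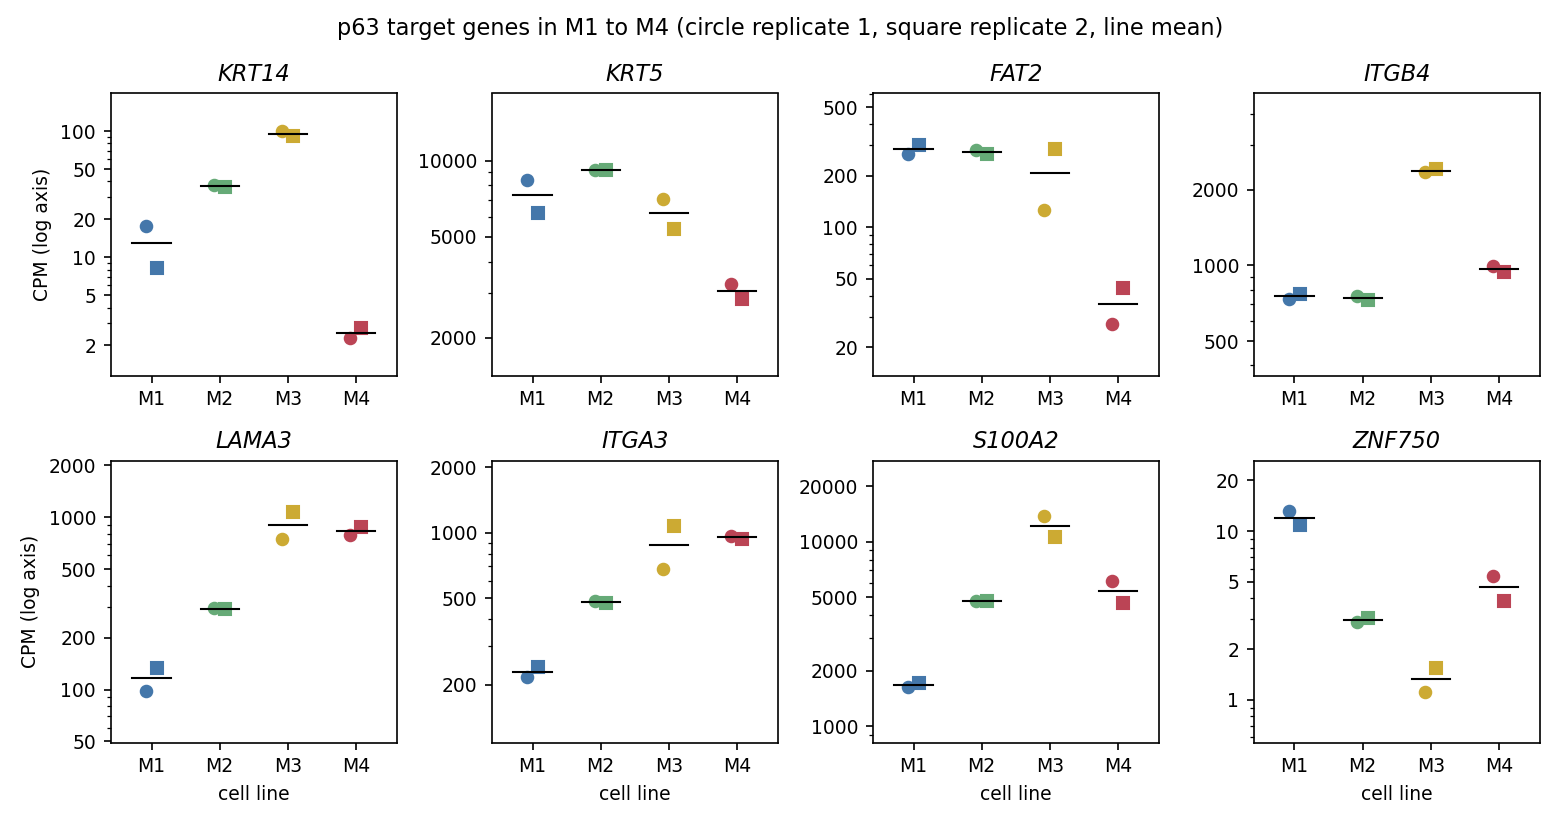
Levels of 8 p63 target genes in CPM (log axis) by cell line, with a circle for replicate 1, a square for replicate 2 and a line at the mean of both. KRT14, KRT5 and FAT2 are lowest in M4, ITGB4 and S100A2 are highest in M3, and LAMA3 and ITGA3 are above M1 in all other lines.

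Among 21 partners and paralogs of the 8 genes, 19 could be tested. SESN3, the third sestrin, changed most in M4. It was at 26.4 and 36.4 CPM in M1, 25.6 and 29.9 CPM in M2, 13.5 and 24.3 CPM in M3 and 1.82 and 1.69 CPM in M4. SESN3 fell by 4.15 ± 0.33 against M1 (edgeR adjusted p = 0.000256) and fell by 3.42 ± 0.32 against M3 (adjusted p = 0.00159), and so SESN1 and SESN3 were both lowest in M4. FASLG, the ligand of FAS, had between 0 and 2 counts per library and GFRAL, the receptor of GDF15, had 0. Beside the higher FAS and GDF15 levels of M4, FASLG RNA was therefore at or near 0 and GFRAL RNA was not detected at this depth.

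Among the relatives of BBC3, BMF, another activator of apoptosis, was at 31.6 and 15.9 CPM in M1, 9.57 and 9.65 CPM in M2, 0.758 and 0.574 CPM in M3 and 4.58 and 2.47 CPM in M4, and fell by 5.16 ± 0.47 in M3 and 2.75 ± 0.41 in M4 against M1 (edgeR adjusted p = 0.000779 and 0.00278). Without M1 replicate 1 these values were -4.57 and -2.15, and both calls were kept. BCL2L11 (BIM) fell by 1.59 ± 0.30 and 1.57 ± 0.30 in the same comparisons (edgeR adjusted p = 0.0108 and 0.00736). BCL2L1, an inhibitor of apoptosis, rose by 1.63 ± 0.30 in M4 (edgeR adjusted p = 0.00629) and MCL1, another inhibitor, by 1.34 ± 0.22 in M3 (adjusted p = 0.0066). Of the activators not called, BIK had log2 fold changes of 1.06 ± 0.32 in M3 and 0.98 ± 0.32 in M4. Those of BAK1 were 0.22 ± 0.12 and 0.74 ± 0.12. BID went the other way, with means of 57.2 CPM in M1, 51.8 CPM in M3 and 40.1 CPM in M4. The means of BAD were 34.4, 46.7 and 39.7 CPM in these lines. The BCL2L11 and MCL1 calls were lost with the disputed libraries exchanged, and those of BMF and BCL2L1 in M4 were kept.

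Relatives and partners of CDKN1A in the cell cycle were measured as well. CDKN1B, its close relative, went from 36.4 and 45.0 CPM in M1 to 18.1 and 17.2 CPM in M4, and fell by 1.20 ± 0.18 (edgeR adjusted p = 0.00265), so both inhibitors were lower in M4 than in M1. CDK2, which they inhibit, was higher by 1.05 ± 0.13 in M4 (adjusted p = 0.00145) and CCND1, the D-type cyclin, by 1.18 ± 0.19 (adjusted p = 0.00377). Neither rise was particular to M4. Mean CDK2 was 25.9, 45.5, 53.5 and 53.5 CPM in M1, M2, M3 and M4. Mean CCND1 was 68.8, 77.1, 149 and 156 CPM in the same order. With the exchange, CCND1 was called in M4 against M1 and CDKN1B and CDK2 were not. CDKN1C, named after its values were seen, was at 64.4 CPM in 1 M1 library and at 0.354 CPM in the other. Over the 19 genes, 3 were called higher and 4 lower in M4 against M1 (9.48% and 11.2% of all genes), 1 and 1 in M4 against M3 (3.99% and 6.3%), and 0 in M2 against M1 (3.37% in either direction), where 8 had an unadjusted p below 0.05 and DESeq2 called 2. Markers of other cell types moved beside these results. DCN, of fibroblasts, was highest in M2, at 60.2 and 58.6 CPM. It was at 34.1 and 1.62 CPM in M1, 1.01 and 2.11 CPM in M3 and 0.167 and 0.0128 CPM in M4. COL1A1, also of fibroblasts, was between 6.07 and 25.5 CPM in all libraries. CD68, of macrophages and other cells, went from 9.55 and 4.03 CPM in M1 to 51.4 and 39.0 CPM in M4. Their part in the results was not tested.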

How the data were processed

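Poly A+ RNA of 8 samples (4 lines, 2 biological replicates each) was sequenced as paired-end libraries, pooled over 2 lanes. The authors trimmed reads with Trimmomatic, aligned them to hg19 (GRCh37) with STAR and deposited expected counts per gene from STAR/RSEM on GENCODE v19, which are estimated counts without normalization. Tool versions and the use of strand are not given in the sources used here. Of the values, 12.8% were not whole, and all were rounded. Depth ran from 69669970 to 107350344 counts, which leaves genes with few counts, such as TP73 in M3 and M4, imprecise.

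A single model of all 8 libraries with a term for each line was fitted by edgeR 4.0.16 (R 4.3.3), using TMM scaling, filterByExpr and its robust quasi-likelihood test, and p-values were adjusted over 18431 genes. p-values measure the spread between these biological replicates only. Symbols, exon lengths and starts came from GENCODE 44 mapped to GRCh37, and sequences from that genome. DESeq2 1.42.0, other scalings, filters and library subsets were alternatives. The numbers of the replicates did not pair the samples: same-numbered deviations correlated from -0.05 to 0.21 between lines, not all above 0.1.

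The 8 genes and the wider lists, which hold textbook members of each pathway, were chosen with earlier results of these data known. From each list and comparison, up to 4 called genes with the largest changes and no overlap between the lines were named, with the 2 most similar profiles per gene (log2 of CPM plus 0.5). Further genes named to complete a count of 7 or fewer, MDM4, CDKN1C, FASLG, GFRAL, the neighbors and the genes with exact matches were chosen after their values were seen. The supplementary table was used only to check library labels.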

Additional observations from a re-analysis of the deposited data

How the results depend on the processing

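The number of the 40 p53 targets called was 0 in M2 against M1, 5 in M3 against M1, 9 in M4 against M1, 3 in M3 against M2, 8 in M4 against M2 and 6 in M4 against M3, and moved by more than 1.5 times in these cases. In M2 against M1 it was 1 with DESeq2, 1 with RLE size factors, 1 with at least 10 counts in every library of a line, 1 in a fit of the 2 lines alone and 2 without a filter. Without a fold limit it was 3, 11, 18, 13 and 14 in M2, M3 and M4 against M1, M4 against M2 and M4 against M3. In M3 against M1 it was 8 without a filter and 3 with the 2 lines alone, and in M3 against M2 it was 5 with DESeq2 and 6 without a filter. The rule of a 2-fold change in both replicates gave 1, 5 and 3 in M3 against M2, M4 against M2 and M4 against M3. With M1 replicate 2 and M2 replicate 1 exchanged it was 0 in both M3 against M1 and M3 against M2 and 3 in M4 against M3. With both left out, an alternative added after seeing the data, it was 1 in M3 against M2 and 5 in M4 against M2. The exchange also reversed the M2 to M1 difference of CHEK1 (-0.10) and KRT14 (-0.30). Leaving out 1 library at a time gave 0 to 2 in M2 against M1, 4 to 8 in M3 against M1, 9 to 10 in M4 against M1, 0 to 2 in M3 against M2, 4 to 6 in M4 against M2 and 4 to 8 in M4 against M3. The lowest values in the M2 comparisons came without either M2 library. Shares of all genes called are not given for these fits or without a fold limit. Nothing about the targets is read from those counts. The replicate numbers did not pair the samples, and a replicate block gave 1 call in M2 against M1 in place of 0. The cause of these shifts was not tested. For the 8 genes, 452 of 528 recomputed changes stayed within 1 SE of the value given, and 0 reversed a called change. Among other named genes 801 values kept direction and call, 193 kept the direction but lost the call, and 2 reversed. With 2 libraries per line, and 9 to 41 counts of TP73 in M3 and M4, small differences could not be resolved.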
